A study of Arabidopsis thaliana with 4 samples.

Results

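The IQD genes encode plant proteins that bind calmodulin, the calcium sensor, through a short region of repeated IQ-type motifs. The RefSeq gene table lists 33 IQD genes in Arabidopsis thaliana, and 15 of them have a probe set assigned to that gene alone in the probe annotation used here. The 9 described below had a mean signal of at least 100 over the 4 arrays and lie outside the stretch of chromosome 1 from AT1G01080 to AT1G11280, which was left out by the rule. They are IQD31 (AT1G74690), IQD21 (AT3G49260), IQD24 (AT5G07240), IQD32 (AT1G19870), IQD28 (AT1G14380), IQD22 (AT4G23060), IQD30 (AT1G18840), IQD23 (AT5G62070) and IQD19 (AT4G14750). Each has 1 probe set. They are 9 of the 7240 named genes that reached this level, among 13592 probe sets tested. The genes were chosen by name and by mean signal over the 4 arrays, so that mean is a description only. IQD19 was the closest gene inside the limit, with a mean of 122, and IQD26 the closest outside it, with 85.3. Another 18 IQD genes have no named probe set here and were not analysed.

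IQD proteins are regarded as scaffolds that link calcium and calmodulin signals to other proteins, and many of them sit on microtubules, at the plasma membrane or in the nucleus. The founding member, IQD1, was described as a regulator of glucosinolates, the sulfur-containing defence compounds of the cabbage family. IQD5 and IQD16, also called ABS6, act on microtubules and on the shape of leaf cells or leaves, and kinesin light chain-related proteins are known IQD partners. None of IQD1, IQD5 and IQD16 is among these 9 genes, and no individual role is stated below for these 9.

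The plants were AAF-OX, a line that overexpresses AAF in the Col-0 background, and Col-0, the wild type. AAF is known from work on leaf senescence and redox balance. All plants were 3 weeks old and grown in 16 h light and 8 h dark, and RNA came from rosette leaves. Each genotype had 2 Affymetrix arrays (n = 2 per group), and the series names 2 independent sets of arrays. Replicate number 1 or 2 was read here as the set, called set 1 and set 2, although the labels do not say so. The promoter of the transgene, the number of lines behind AAF-OX and the number of plants per sample are not given in the sources used here. In whole leaves, fewer cells of a type and less RNA per cell cannot be told apart.

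The arrays had been scaled to the same 2% trimmed mean of 500, which sets their overall level. After that scaling, median signals were 176.6 and 169.0 for AAF-OX and 180.2 and 169.9 for Col-0. Here and below, the values of a genotype are given for set 1 and then set 2. AAF (AT1G66330) itself read 7442 and 7706 on the AAF-OX arrays, against 759.9 and 1337 on the Col-0 arrays. Of 8 leaf markers, 2 have a named probe set, the Rubisco activase gene RCA and the Calvin cycle gene SBPASE, and both were bright on every array, from 8573 to 28152. Of 5 root markers, PYK10 alone has one, with 629 and 1527 in AAF-OX and 1075 and 1974 in Col-0, so it was lower in AAF-OX in both sets. Its part in the results was not tested. The 6 flower and meristem markers and the 3 seed markers have no named probe set. Arrays of the same set correlated more closely across probe sets (r of 0.979 and 0.982 on log2 values, over genes and not over replicates) than arrays of different sets (0.895 to 0.908).

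AAF-OX was set against Col-0 to see how IQD transcripts of rosette leaves differ under AAF overexpression. None of the 9 genes passed limma's test at an adjusted p under 0.05 in either direction. The planned fit on genotype alone called 0% of all tested probe sets, and the fit with the sets as a block called 1.55%. Of the 9, 6 had a lower signal in AAF-OX than in Col-0 within both sets (IQD23, IQD21, IQD30, IQD32, IQD28 and IQD31), none was higher in both, and 3 had opposite signs in the 2 sets (IQD22, IQD24 and IQD19). Over all tested probe sets, 31.3% were lower in both sets, 24.4% higher in both and 44.3% opposite. Differences are given as log2 of AAF-OX over Col-0 after adding 50 to every signal, so changes of dim genes are understated.

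**Figure D1:**
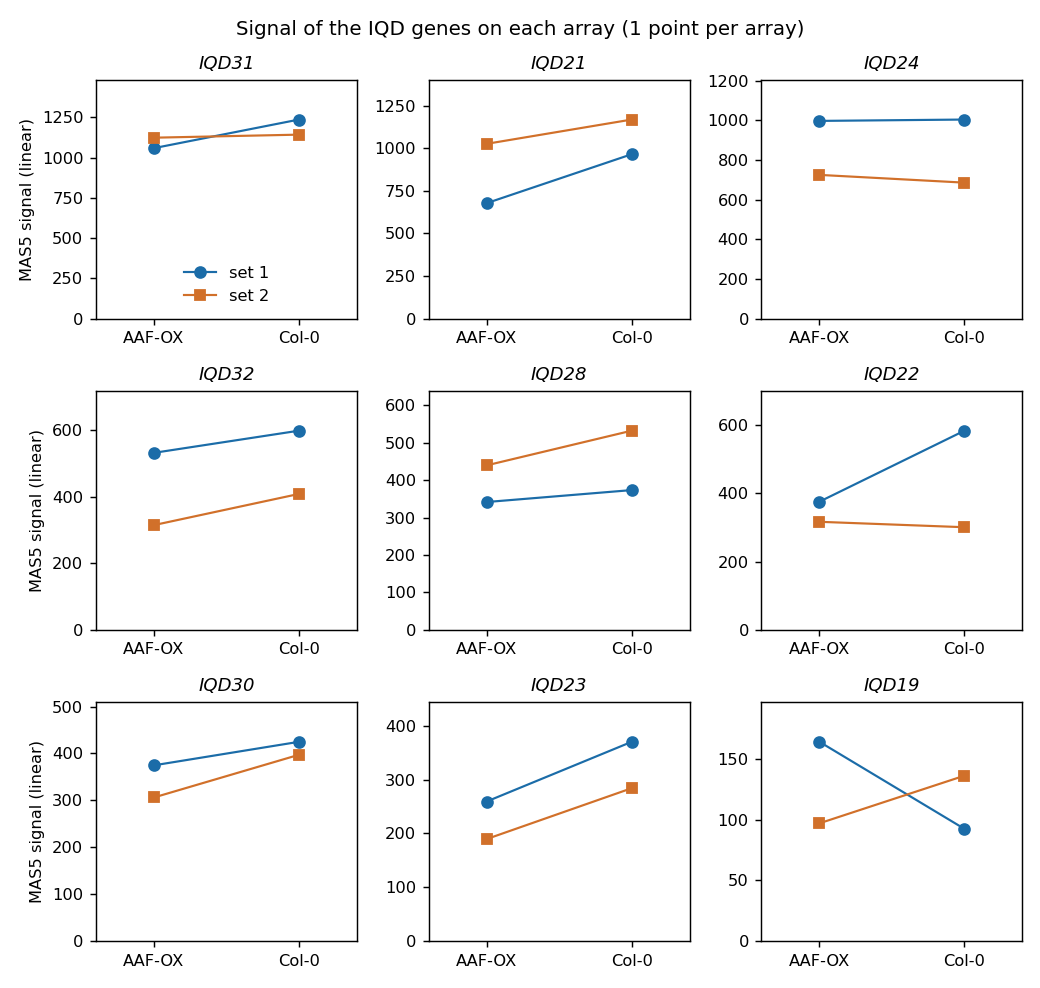
MAS5 signal (linear, axes from 0) of the 9 IQD genes on each array, with AAF-OX left and Col-0 right. Each point is 1 array, circles are set 1 and squares set 2, and a line joins the arrays of a set. Lines climb towards Col-0 in both sets for 6 genes, and for IQD32, IQD24, IQD22, IQD21 and IQD28 the sets lie, on average, further apart than the genotypes.

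IQD23 had the largest genotype difference of the family over all 4 arrays. Its signals were 259 and 189.6 in AAF-OX, against 371 and 284 in Col-0 (means 225 ± 49.4 and 327 ± 61.1, SD, n = 2 each). Both AAF-OX arrays were below both Col-0 arrays. The sets gave nearly the same difference, -0.44 in set 1 and -0.48 in set 2, with a mean of -0.46, or 72.6% of Col-0 on the plus-50 scale. limma with the sets as a block gave an SE of 0.16 and an adjusted p of 0.23 (unadjusted p = 0.0119), and the planned fit on genotype alone gave an SE of 0.25 and an adjusted p of 0.9999. With 1 array left out, its difference was -0.28 without AAF-OX replicate 2, -0.30 without Col-0 replicate 1, -0.63 without Col-0 replicate 2, and finally -0.65 without AAF-OX replicate 1. These fits had no block, so the lone array of a genotype was set against arrays of both sets. Set differences therefore enter these values. IQD23 was the largest only in the last of these 4 fits. IQD21 was the largest in the first and the second (-0.61 and -0.46), and IQD22 in the third (-0.68). IQD28 also exceeded IQD23 in size in the first and the second (-0.34 and -0.41), and IQD19 in the first (0.40).

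IQD21 followed, with 678 and 1026 in AAF-OX, against 965 and 1169 in Col-0 (852 ± 246 and 1067 ± 144, SD, n = 2 each). It was lower in AAF-OX within each set, by -0.48 in set 1 and -0.18 in set 2, but the groups overlap, because the set 2 AAF-OX array exceeded the set 1 Col-0 array. The mean difference was -0.33 ± 0.13 (SE with the block; limma's adjusted p = 0.343, unadjusted p = 0.0269). In the fits without the block, leaving out an AAF-OX array gave -0.05 (replicate 1 left out) or -0.61 (replicate 2). Leaving out a Col-0 array gave -0.46 (replicate 1) or -0.20 (replicate 2). These values mix the genotype difference with the set difference of IQD21, which was 0.41 in set 2 against set 1.

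IQD30 had 375 and 306 in AAF-OX, against 425 and 397 in Col-0, with no overlap between the groups and a difference of -0.24 ± 0.15 (SE with the block; limma's adjusted p = 0.618). IQD32 had 532 and 315 in AAF-OX, against 598 and 408 in Col-0, a difference of -0.24 ± 0.14 (adjusted p = 0.606, limma with the block). Its groups overlap, since both set 1 arrays were above both set 2 arrays. In both genes the deficit in AAF-OX was somewhat larger in set 2 (-0.33 for each) than in set 1 (-0.16 for each).

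IQD28 had 342 and 439.7 in AAF-OX, against 373 and 532 in Col-0. The groups overlap, and the difference was -0.18 ± 0.14 (limma with the block, adjusted p = 0.748). IQD31, by contrast, had 1059 and 1124 in AAF-OX, against 1236 and 1143 in Col-0, and its groups do not overlap. Its difference was nonetheless small, at -0.12 ± 0.12 (limma with the block, adjusted p = 0.832), and nearly all of it came from set 1 (-0.21, against -0.02 in set 2).

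The remaining 3 genes did not keep a direction. IQD22 had 376 and 317 in AAF-OX, against 584 and 301 in Col-0, so that the set 1 Col-0 array stood above the other three. Its difference was -0.57 in set 1 and 0.06 in set 2, a mean of -0.26 ± 0.17 (limma with the block, adjusted p = 0.673). IQD19, the dimmest of the 9, had 164 and 97.0 in AAF-OX, against 92.4 and 136 in Col-0, with 0.59 in set 1 and -0.34 in set 2. The gap of 0.93 between these values was the widest among the 9 genes, whose median gap was 0.17, against 0.20 over all tested probe sets. IQD24 had 997 and 725 in AAF-OX, against 1004 and 686 in Col-0, and its difference of 0.03 ± 0.13 was the closest to 0 (limma with the block, adjusted p = 0.973). Whether the genotype difference of a gene differs between sets was not tested, since 4 arrays leave no residual degrees of freedom for it.

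The 95% intervals of the fit with the block, not adjusted for the number of probe sets, show what sizes these arrays leave possible. They ran from -0.80 to -0.12 for IQD23 and from -0.61 to -0.04 for IQD21. For the other 7 genes they include 0. The narrowest of these ran from -0.39 to 0.15 (IQD31) and the widest from -0.40 to 0.65 (IQD19). That of IQD24 ran from -0.24 to 0.31. The difference of -0.46 seen for IQD23 is also inside the intervals of IQD21, IQD22 (-0.63 to 0.12), IQD30 (-0.56 to 0.07), IQD32 (-0.55 to 0.06) and IQD28 (-0.49 to 0.13).

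**Figure D2:**
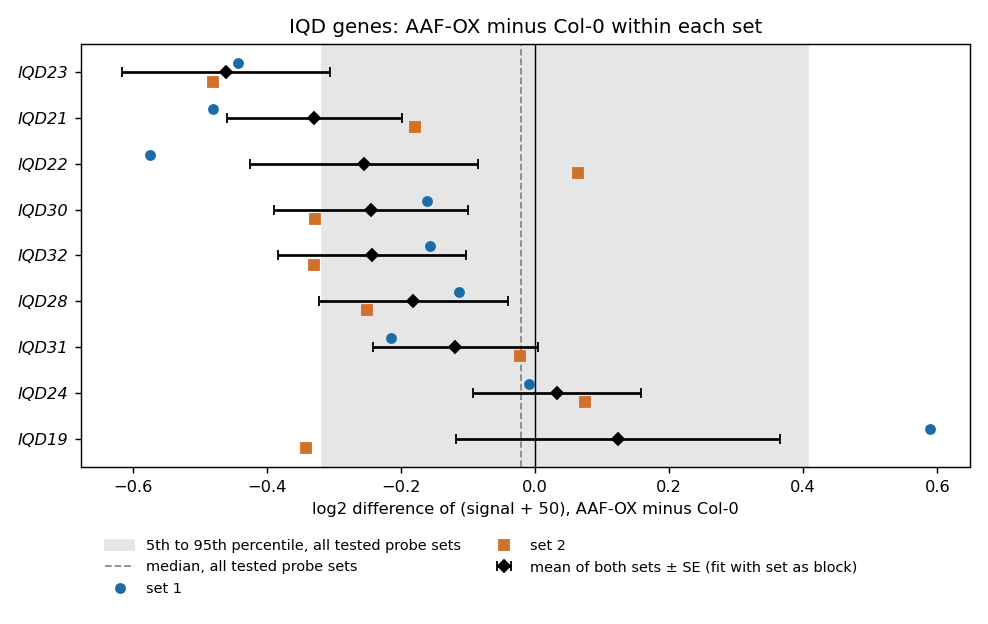
Log2 difference of signal plus 50, AAF-OX minus Col-0, for each IQD gene, lowest at the top. Circles are set 1, squares set 2 and diamonds the mean with its SE from the fit with the set as a block, and the grey band holds the 5th to 95th percentile of all tested probe sets (-0.32 to 0.41). The means of IQD23 and IQD21 lie left of the band, and the set points of IQD22, IQD24 and IQD19 fall on both sides of 0.

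As a family, the 9 genes had a median difference of -0.24, with -0.16 in set 1 and -0.25 in set 2, beside -0.02 over all 13592 tested probe sets. The planned limma fit, on genotype alone, called 0 of the 9 genes and 0% of all tested probe sets at an adjusted p under 0.05. AAF itself, at 7.19-fold, had an adjusted p of 0.9999 in that fit, so the absence of a call there says nothing about an IQD gene. At an unadjusted p under 0.05 it held 0 of the 9 and 0.861% of all. With the block, limma called 0 of the 9 again, where 1.55% of all tested probe sets were called (0.206% lower and 1.34% higher). AAF was among those called with the block (limma's adjusted p = 2.53e-06). At an unadjusted p under 0.05 in that fit, IQD23 and IQD21 were lower, 2 of the 9, and 4.19% of all tested probe sets were lower at that level. The groups did not overlap, with AAF-OX lower, for 3 of the 9 (IQD23, IQD30 and IQD31), where 10.9% of all tested probe sets did so. No member stood wholly above Col-0, as 7.86% of all did. The 9 genes were chosen with earlier results of these data known, so these counts describe them and are no test of the family. Without Col-0 replicate 1 the median was -0.07 and without AAF-OX replicate 2 it was -0.15. When the set 1 Col-0 array was set against the set 2 AAF-OX array and the reverse, 3 of the 9 were lower in both pairs (14.0% of all).

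Set 2 against set 1 compares the arrays with replicate number 2 with those of number 1, taken here as the 2 sets that the series names, with a genotype term in the fit. It was past the threshold for 5 of the 9 IQD genes, with 2 higher and 3 lower in set 2, where limma called 39.4% of all tested probe sets (17.3% higher and 22% lower). IQD32, IQD24 and IQD22 fell in set 2, and IQD21 and IQD28 rose. The set difference exceeded the genotype difference in size for 5 of the 9 genes and for 75.8% of all tested probe sets.

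IQD32 had the largest set difference, with 315 and 408 in set 2 (AAF-OX, then Col-0), against 532 and 598 in set 1. That is 0.666-fold in set 2, a log2 of -0.59 ± 0.14 (SE; limma's adjusted p = 0.00577). IQD24 was close behind, with 725 and 686 in set 2, against 997 and 1004 in set 1, and -0.48 ± 0.13 (limma's adjusted p = 0.0101). In both genes set 2 was lower in each genotype, at -0.67 in AAF-OX and -0.50 in Col-0 for IQD32 and at -0.43 and -0.52 for IQD24. IQD22 had -0.53 ± 0.17 (limma's adjusted p = 0.0264), made up of -0.22 in AAF-OX and -0.85 in Col-0.

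The 2 genes that were higher in set 2 were IQD21, at 0.41 ± 0.13 (limma's adjusted p = 0.0251), and IQD28, at 0.39 ± 0.14 (limma's adjusted p = 0.0453). Each stood higher on both set 2 arrays than on both set 1 arrays. Non-overlapping sets were seen for 3 of the 9 genes with set 2 lower (38.7% of all tested probe sets) and for 2 with set 2 higher (29.8%). IQD23 had -0.35 ± 0.16 (limma's adjusted p = 0.094), IQD30 -0.17, IQD19 -0.08 and IQD31 -0.01, and these 4 did not pass. The median set difference of the 9 was -0.17, beside -0.05 over all tested probe sets.

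IQD32 and IQD24 kept their set calls under all 9 settings of the fit on 4 arrays, and the other calls were lost in some. Without the filter on dim probe sets, without the intensity trend of the variance, or without the genotype term, 2 of the 9 genes were called. Over all probe sets these fits called 4227, 4769 and 3996, in that order, against 5350 in the main fit. Calls thus fell across all probe sets too, and the fit without the filter also tested the dim ones. With a pseudocount of 1, 4 of the 9 genes and 5123 of all probe sets were called, and IQD28 was lost (limma's adjusted p = 0.0505). With 1 array left out, and the genotype term dropped with it, 1 gene was called each time, namely IQD22 without AAF-OX replicate 1, IQD24 without AAF-OX replicate 2, IQD21 without Col-0 replicate 1 and IQD32 without Col-0 replicate 2.

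**Figure D3:**
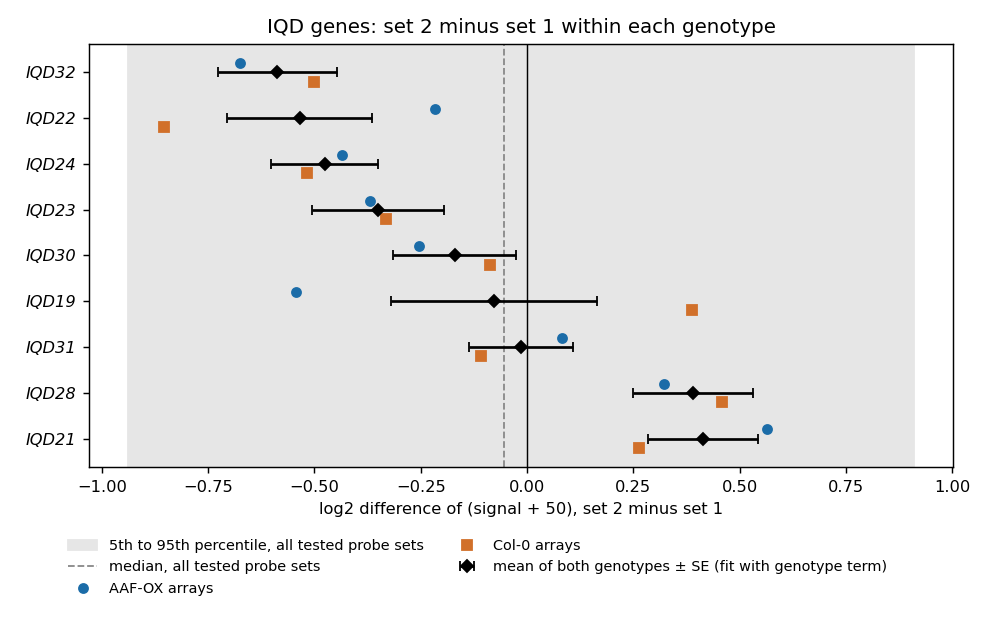
Log2 difference of signal plus 50, set 2 minus set 1, for each IQD gene, lowest at the top. Circles are the AAF-OX arrays, squares the Col-0 arrays and diamonds the mean with its SE from the fit with a genotype term, and the grey band holds the 5th to 95th percentile of all tested probe sets (-0.94 to 0.91). All 9 means lie inside the band, with IQD32 lowest at -0.59 and IQD21 highest at 0.41.

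The 9 genes are spread over the genome, with 4 on chromosome 1, 1 on chromosome 3, 2 on chromosome 4 and 2 on chromosome 5. Around each one, the 5 nearest measured genes on either side were taken in the gene order of the RefSeq table. None of these neighbours was called between genotypes by limma with the block, where 1.55% of all tested probe sets were called. IQD23, IQD21, IQD32 and IQD22 were each lower than all 10 of their neighbours. IQD24 was higher than 9 of its 10 neighbours, IQD19 higher than 7 of 10, IQD31 than 3 and IQD30 than 1. How often other genes lie below all 10 of their neighbours was not counted. For IQD23 the neighbours had a median of -0.08 and ran from -0.19 to 0.28, and for IQD21 they had a median of 0.01 and ran from -0.14 to 0.31. IQD28, at -0.18, lay near the median of its neighbours (-0.14), and 3 of its 10 neighbours were lower still.

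Profiles over the 4 arrays were compared by Euclidean distance of log2(signal + 50), each centred on its own mean. The closest named genes to IQD23 were AT1G69580 (distance 0.08), AT2G40700 (0.09) and AT2G41600 (0.10). AT1G69580 had 136 and 96.0 in AAF-OX, against 189 and 152 in Col-0. The closest to IQD32 was AT3G05760 (distance 0.02), with 992 and 594 in AAF-OX, against 1120.0 and 775 in Col-0, and then AT3G19540 and AT1G55840 (0.06 each). With only 4 arrays such likeness is a description, and many genes can share it.

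Calcium and microtubule genes related to IQD function were examined from 8 lists. Calmodulins, kinesin light chain-related genes, other calmodulin-binding families and calcium sensor kinases had no named probe set and were not analysed. The other 4 lists held 20 tested genes. Between genotypes limma called 0 of them with the block (1.55% of all tested probe sets) and 0 without it (0% of all). At an unadjusted p under 0.05, limma held 2 of the 20 with the block (CML41 and TUA6), where 11% of all tested probe sets were at that level, and 0 without it (0.861% of all). Between sets limma called 8 of the 20, 5 higher and 3 lower in set 2, where 17.3% and 22% of all tested probe sets were called.

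Among calmodulin-like genes, which encode calcium sensors related to calmodulin, 5 of 14 were tested, with a median genotype difference of -0.03. The 2 with the smallest unadjusted p were CML41 at 0.51 (unadjusted p = 0.0134, limma with the block, adjusted p = 0.244) and CML23 at -0.45 (adjusted p = 0.517). The set differences of 3 of the 5 were larger than that of any IQD gene. CML38 rose by 2.34 in set 2 (669.8 and 538 in set 2, AAF-OX then Col-0, against 89.7 and 68.2 in set 1; limma's adjusted p = 6.65e-07), CML41 fell by 2.13 in set 2 (adjusted p = 2.6e-06), and CML23 rose by 0.67 (adjusted p = 0.0315).

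Of the alpha tubulins, the building blocks of microtubules, 2 of 6 were tested. TUA6 had 4806 and 5923 in AAF-OX, against 5794 and 8267 in Col-0, lower within both sets, at -0.37 ± 0.10 (SE with the block; unadjusted p = 0.00376, limma's adjusted p = 0.118). TUA1 had 0.06. Between sets TUA6 rose by 0.40 (adjusted p = 0.00865) and TUA1 fell by 0.36 (adjusted p = 0.0447) in set 2.

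Of the regulators of microtubules and cell shape, 11 of 57 were tested. Most of the 11 were TRM genes. The median genotype difference was -0.14. Of the 11, 7 were lower in AAF-OX within both sets and 0 higher in both, beside 31.3% and 24.4% of all tested probe sets. The smallest difference within a set among these 7 was -0.0012. At an unadjusted p under 0.05, limma with the block held 0 of the 11 and 11% of all tested probe sets. The 2 with the smallest unadjusted p were TRM21 at -0.26 (adjusted p = 0.59) and TRM22 at -0.27 (adjusted p = 0.708), both of the TON1-recruiting-motif family, whose members bind a protein needed for ordering cortical microtubules. MAP65-6, a microtubule bundling family member, fell by 0.81 in set 2 (limma's adjusted p = 0.000476), and TRM21 rose by 0.46 (adjusted p = 0.027).

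Of the glucosinolate genes, 2 of 20 were tested. The methionine chain-elongation gene BCAT4 had -0.10 and the glucosyltransferase gene UGT74B1 -0.04 between genotypes (adjusted p = 0.864 and 0.962, limma with the block). BCAT4 rose by 0.55 in set 2 (limma's adjusted p = 0.00288), and UGT74B1 had -0.21 there (adjusted p = 0.187).

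**Figure D4:**
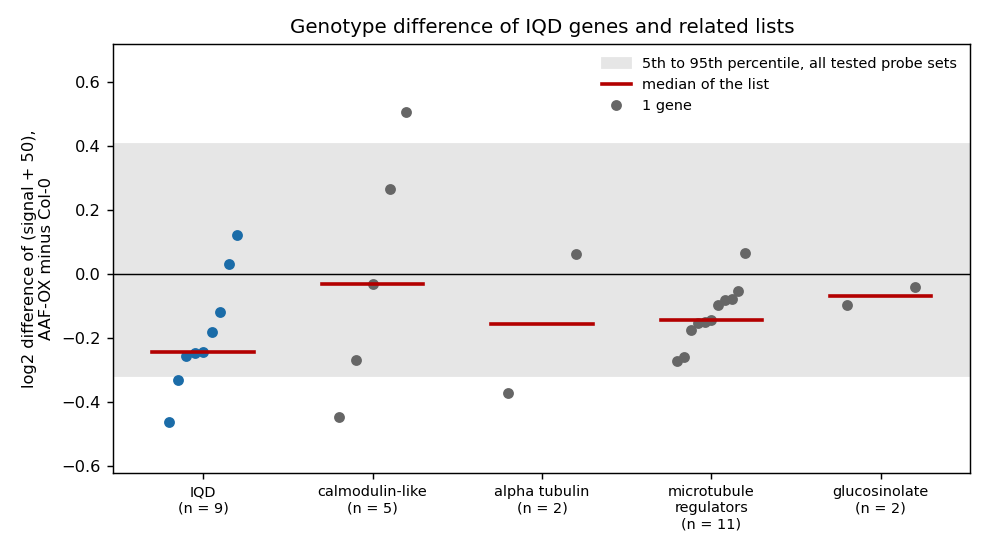
Log2 difference of signal plus 50, AAF-OX minus Col-0, with 1 point per gene for the 9 IQD genes and the 4 related lists that had tested genes. Red bars are list medians, at -0.24 for IQD, -0.03 for calmodulin-like, -0.15 for alpha tubulin, -0.14 for microtubule regulators and -0.07 for glucosinolate genes, and the grey band is the 5th to 95th percentile of all tested probe sets. No point shown passed the test between genotypes, as 1.55% of all tested probe sets did with the block and 0% without it.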

How the data were processed

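Rosette leaf RNA of AAF-OX and Col-0 was hybridised to Affymetrix arrays, 2 per genotype. The deposited intensity values are linear and were made with MAS5, per the submitters' processing notes, which as used here name no version. The values show that the authors scaled each array to a 2% trimmed mean of 500 (500.04 to 500.05). Scanner files and detection calls were not used here. The number of arrays limits the precision.

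Of 22810 probe sets, 64 controls were left out. Signals were taken as log2(signal + 50), with a minimum mean of 100 over the arrays (13592 tested, 9154 left out). One named gene applied to 13513 probe sets and several to 503, which were not named. Names came from the platform's probe annotation and the TAIR10.1 gene table (13436 matched), and no coordinates are given because no build is named for the probes.

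Groups came from sample titles. Tests used limma 3.58.1 in R 4.3.3 (two-sided, lmFit then eBayes with trend, threshold 0.05 after Benjamini-Hochberg adjustment over all tested probe sets). The planned model for genotype had no block, and the model with the replicate number as a block was the alternative (1 residual degree of freedom, 10.7 borrowed across probe sets). The series names 2 independent sets, and same-numbered arrays deviated together (correlation 0.856, 2 pairs), so the numbers were taken to pair the arrays. No label says that the sets were separate plants. The p-values thus reflect differences among arrays that may be technical. Set 2 against set 1 was tested with a genotype term. The fits were also run on data simulated from the block model with independent errors. That checks the code only and cannot show how the fits perform on these arrays.

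The IQD genes and the lists were chosen with earlier results of these data known. Named are every IQD gene, the 2 genes per list with the smallest unadjusted p in each fit, and the 3 nearest profiles to the IQD genes with the largest genotype and set differences. CML23 is named also for its set call. From the microtubule list, 4 tRNA modification genes that share the letters TRM were removed. Alternatives were a pseudocount of 1 or 100, a minimum mean of 250 or none, quantile normalization, median centring, no trend, the block and each array left out.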

Additional observations from a re-analysis of the deposited data

How the results depend on the processing

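Between genotypes, no IQD gene was called under the replicate block and its 7 other settings. The fits without the block and those with 1 array left out called 0 probe sets in all, AAF included, so they could not call an IQD gene and show nothing of stability. The same 6 of 9 genes were lower in both sets under both other scalings and both other pseudocounts. In crossed pairs, a comparison added after seeing the data, the count was 3. Over all probe sets the planned fit called 0, and the replicate block called 210, or 76 and 276 with pseudocounts of 1 and 100, 18 without the filter, 233 at a mean of 250, 292 with quantile normalization, 373 with median centring and 21 without the trend. The cause of these changes was not tested. With 1 array left out, which confounds set and genotype in part and assumes that a lone array varies like the other group, the IQD median ran from -0.23 to -0.0699. Single genes then ran from -0.23 to 0.29 for IQD24, from -0.15 to 0.40 for IQD19, from -0.58 to 0.094 for IQD32, from -0.68 to 0.17 for IQD22 and from -0.41 to 0.0482 for IQD28, so these 5 changed sign, and IQD21 ran from -0.61 to -0.05 and IQD23 from -0.65 to -0.28. Between sets, 5 IQD genes were called, 4 with a pseudocount of 1, and 2 without the filter, without the trend or without the genotype term. Over all probe sets these fits called 5350, 5123, 4227, 4769 and 3996, in that order. With 1 array left out 1 IQD gene was called each time, 2331 to 3822 probe sets were called against 5350, the IQD median ran from -0.33 to -0.0061, IQD19 from -0.37 to 0.22 and IQD31 from -0.12 to 0.0936. IQD31 was also 0.0228 with quantile normalization and 0.0678 with median centring, and IQD19 was 0.0036 with median centring. The IQD set median of -0.17 became -0.089 under each of these 2 scalings. The median of all tested probe sets, -0.05, became -0.01 with quantile normalization and 0.03 with median centring. Averaging the probe sets of a gene was not run, since each IQD gene has 1. Dim signals limit the lower end, as 30.1% to 31.4% of values on each array were under 50.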

Other observations

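The 6 IQD genes with a named probe set but a mean signal under 100 belong to no comparison above. IQD26 had 105 and 61.3 in AAF-OX and 82.3 and 92.5 in Col-0. IQD33 had 68.6 and 63.4 in AAF-OX and 75.7 and 45.0 in Col-0. IQD16, which is known to act on shoot and leaf shape, had 58.8 and 35.2 in AAF-OX and 53.1 and 51.1 in Col-0. IQD15 had 32.2 and 33.5 in AAF-OX and 10.5 and 25.03 in Col-0, and IQD27 had 3.38 and 27.1 in AAF-OX and 2.20 and 3.76 in Col-0. IQD18 (AT1G01110), in the excluded stretch at the start of chromosome 1, had 132 and 18.0 in AAF-OX and 42.0 and 47.2 in Col-0, so its 2 AAF-OX arrays lie on either side of both Col-0 arrays. Signals of this size were not tested.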
